A study of Homo sapiens with 6 samples.

Results

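The collagen genes were the 44 protein-coding genes, of 20037 in the RefSeq annotation of GRCh38, whose symbol is COL, a number, A and a number. R-loops, in which RNA pairs with one DNA strand and leaves the other single, were mapped over them by DRIP-seq, an immunoprecipitation of DNA:RNA hybrids with the antibody S9.6. The cells were SH-SY5Y, an established human neuroblastoma line, transduced with a lentivirus for the short hairpin RNA shT2 (3 samples) or shNC3 (3 samples) and kept under puromycin. The series concerns knockdown of TDP-43, an RNA-binding protein. No label says outright which hairpin is directed at TDP-43; their names point to shT2 for the knockdown and shNC3 for a negative control. Every difference is given as shT2 relative to shNC3. Each hairpin is represented by a stable, drug-selected population, and nothing in the labels says that its samples came from separate infections or cultures, so the p-values reflect sample-to-sample spread alone, and that spread may be technical.

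Collagens are the main structural proteins of the extracellular matrix. Their chains assemble in the endoplasmic reticulum into helical molecules after hydroxylation of proline and lysine. Fibrillar collagens form the banded fibrils of connective tissue, type IV collagens the network of basement membranes, and FACIT collagens (fibril-associated collagens with interrupted helices) decorate fibrils. The other types include the beaded filaments of type VI, the anchoring fibrils of type VII, transmembrane collagens and the multiplexins. The type IV genes lie in head-to-head pairs, each sharing a short interval between divergent start sites. In neuroblastoma, connective tissue collagens are known mainly from mesenchymal cell states and stroma rather than from noradrenergic cells.

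Sequences of 6 collagen promoters are shown. Peak calls differed between samples over those of COL4A1-COL4A2, COL5A1, COL6A2 and COL9A2. The COL7A1 promoter was covered in all samples of a gene whose body differed, and no peak reached COL4A4-COL4A3, a pair built like COL4A1-COL4A2. They are from RefSeq, GRCh38.p14, and run 5′ to 3′ on the strand of the gene named last. Capitals mark CCAAT boxes and GC boxes, searched on both strands as CCAAT or ATTGG and as GGGCGG or CCGCCC. The motifs do not overlap each other, but adjoining copies of the GC box can share a base. The intervals of the pairs reach from start to start, and the others are the 250 bases before the start.
COL4A1-COL4A2 interval, chr13:110307158-110307283, plus strand: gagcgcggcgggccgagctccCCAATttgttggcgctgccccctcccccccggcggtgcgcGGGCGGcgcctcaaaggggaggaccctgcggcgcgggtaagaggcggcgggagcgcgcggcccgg
COL4A4-COL4A3 interval, chr2:227164489-227164623, plus strand: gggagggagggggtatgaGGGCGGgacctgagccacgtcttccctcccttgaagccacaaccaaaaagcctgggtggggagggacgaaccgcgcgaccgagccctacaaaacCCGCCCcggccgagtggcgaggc
COL5A1, chr9:134641553-134641802, plus strand: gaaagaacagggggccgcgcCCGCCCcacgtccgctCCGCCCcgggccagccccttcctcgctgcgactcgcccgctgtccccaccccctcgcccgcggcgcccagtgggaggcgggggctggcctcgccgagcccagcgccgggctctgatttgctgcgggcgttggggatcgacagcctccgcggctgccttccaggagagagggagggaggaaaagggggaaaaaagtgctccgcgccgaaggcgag
COL6A2, chr21:46097862-46098111, plus strand: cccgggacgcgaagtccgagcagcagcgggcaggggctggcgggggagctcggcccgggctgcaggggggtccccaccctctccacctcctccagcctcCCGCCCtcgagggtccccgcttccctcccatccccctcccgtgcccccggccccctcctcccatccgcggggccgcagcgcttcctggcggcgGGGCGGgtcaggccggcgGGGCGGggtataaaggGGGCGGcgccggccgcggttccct
COL7A1, chr3:48595330-48595579, minus strand: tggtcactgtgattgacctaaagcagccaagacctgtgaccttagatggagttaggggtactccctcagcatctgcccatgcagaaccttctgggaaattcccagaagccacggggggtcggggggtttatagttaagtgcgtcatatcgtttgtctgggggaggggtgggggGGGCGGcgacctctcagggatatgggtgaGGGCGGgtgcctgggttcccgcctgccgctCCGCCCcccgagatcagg
COL9A2, chr1:40317287-40317536, minus strand: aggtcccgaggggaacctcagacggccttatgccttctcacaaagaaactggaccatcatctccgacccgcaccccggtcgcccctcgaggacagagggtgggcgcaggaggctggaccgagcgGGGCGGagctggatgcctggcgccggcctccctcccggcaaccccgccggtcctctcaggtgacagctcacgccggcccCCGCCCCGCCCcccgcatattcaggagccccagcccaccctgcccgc

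The COL4A1-COL4A2 interval held 1 CCAAT and 1 GC box, and the COL4A4-COL4A3 interval held 2 GC boxes and no CCAAT. Their GC content was 80.2% and 68.1%. The windows of COL5A1, COL6A2, COL7A1 and COL9A2 held 2, 4, 3 and 3 GC boxes and no CCAAT. Over all annotated promoters, 32.0% of windows of 250 bases held a CCAAT and 42.6% a GC box. Of windows as long as the COL4A1-COL4A2 interval (126 bases), 21.1% and 34.6% did, and of those as long as the COL4A4-COL4A3 interval (135 bases), 22.1% and 35.5%. A match describes the letters only.

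The peak lists held 49068, 50971 and 50821 peaks in shT2 and 45390, 42717 and 45014 in shNC3, which covered 72.7 to 78.2 Mb and 62.9 to 70.5 Mb of the genome. The read depth recovered from the peak statistics was 3.08 to 3.46 fragments per base in shT2 and 1.65 to 1.79 in shNC3, so the shT2 lists rest on deeper libraries. TARDBP, which encodes TDP-43, was covered over 9702, 9573 and 7819 bp in shT2 and 11725, 10554 and 10239 bp in shNC3. An R-loop length does not check a knockdown of RNA or protein. The value used for a gene is the length in bp under called peaks within its span plus 2 kb on each side, and it says how much of a gene is covered, not how strong the signal is.

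Less of the collagen genes lay under R-loop peaks in shT2 than in shNC3. The lengths summed over the 44 genes were 99.2, 109 and 95.7 kb in shT2 and 229, 193 and 212 kb in shNC3, and the hairpins did not overlap. COL5A1 alone made up a large share of that sum, and without it the sums were 97.7, 107 and 94.5 kb against 161, 143 and 152 kb. The sums over all protein-coding genes were not lower in shT2, at 75462 to 80922 kb against 66801 to 74329 kb. In all these sums a stretch inside several gene windows counts for each gene. In these bulk samples, fewer cells with an R-loop at a gene and less R-loop per cell cannot be told apart.

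No peak lay at 21 of the 44 collagen genes in any sample (47.7%, against 34.9% of all protein-coding genes). These were COL1A2, COL2A1, COL3A1, COL5A2, COL5A3, COL11A1 and COL24A1 among the fibrillar genes, COL4A3, COL4A5 and COL4A6 of type IV, COL9A1, COL12A1, COL14A1 and COL22A1 among the FACITs, and COL6A3, COL6A5, COL6A6, COL8A1, COL13A1, COL15A1 and COL23A1. Another 2 had a peak in too few samples to be tested. COL10A1, the hypertrophic cartilage collagen, was covered over 793 bp in shT2 replicate 3 and 287 bp in shNC3 replicate 1, and COL26A1 over 378 bp in shNC3 replicate 2. That left 21 tested genes, 15 of them with a peak in all 6 samples.

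Each gene's length was first scaled by the total length covered in its sample. It was then compared with limma over the 11771 genes covered in at least 3 samples, and called at a Benjamini-Hochberg adjusted p under 0.05. Of the 21 tested collagen genes, 12 were lower in shT2, 1 was higher and 8 were not called. Many genes moved in this comparison: 51.3% of all tested genes were called, 27.2% lower and 24.2% higher, so the 13 calls (61.9%) lie not far above the background, and the lower calls (57.1%) lie above it. The median log2 difference was -0.57 over the tested collagen genes and -0.08 over all tested genes. Genes called lower with a difference below -1 on the log2 scale numbered 6 among the 21 tested collagens, and made up 9.75% of all tested genes. The 3 shT2 samples all lay below the 3 shNC3 samples at 13 of the 21 tested collagen genes (background 37.4%) and all above at 1 (background 27.6%). Of the 21 tested genes, 4 passed the filter through 1 hairpin alone (COL21A1, COL25A1, COL27A1 and COL9A2), so they had to differ. For them levels are given with no log2 difference, since its size depends on the 500 bp added before taking logs. The 12 lower calls and the 13 genes with shT2 all below include COL21A1, COL25A1 and COL27A1. The 6 genes below -1 include COL25A1 and COL27A1, and the 1 higher call is COL9A2. Over all tested genes, 711 of 11771 passed the filter through 1 hairpin alone. With the lists thinned to equal depth, 12 collagen genes were lower and 0 higher.

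**Figure D1:**
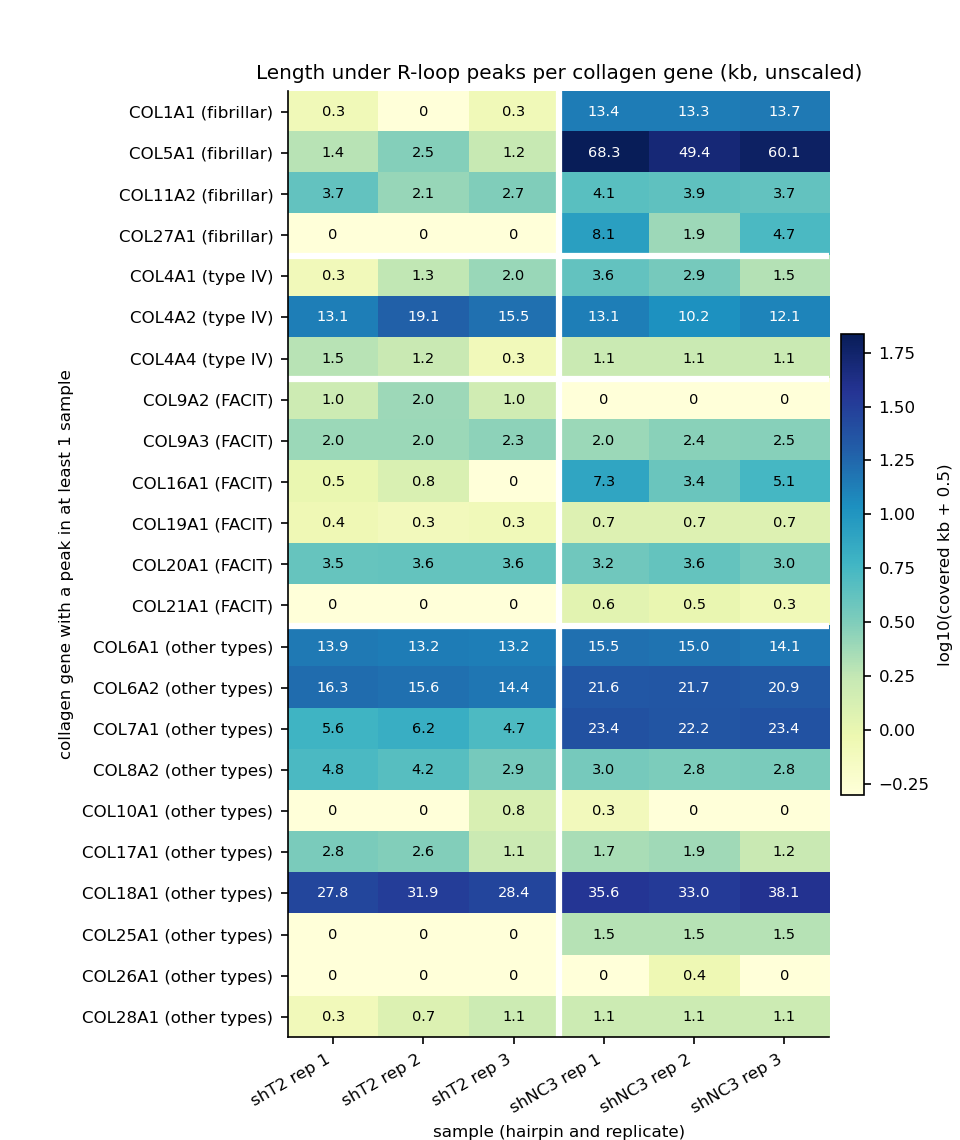
Length under R-loop peaks at the 23 collagen genes with a peak in at least 1 sample. Rows are genes by class, columns are the 6 samples, each cell prints the unscaled length in kb, and colour follows log10(kb + 0.5). The strongest contrasts are in the fibrillar block, where COL5A1 was covered over 49415 bp or more in every shNC3 sample and 2491 bp or less in every shT2 sample.

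The fibrillar genes held the widest differences. All 4 tested members, of 11, were lower in shT2, and the 7 others had no peak. Of all tested genes, 27.2% were lower. COL27A1 passed the filter through shNC3 alone and had to be lower, and most of the COL11A2 cover lay in the window of the neighbouring gene RXRB. Summed over the class the lengths were 5.49, 4.57 and 4.18 kb in shT2 and 93.8, 68.5 and 82.3 kb in shNC3.

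COL5A1 (chromosome 9, 134641803 to 134844843) encodes a chain of type V collagen, which nucleates fibrils and is mutated in classical Ehlers-Danlos syndrome. It was covered over 1440, 2491 and 1189 bp in shT2 and over 68264, 49415 and 60061 bp in shNC3. The shNC3 samples were all far higher, with peaks spread along the whole gene. The log2 difference was -4.93 (SE 0.18, limma adjusted p = 6.71e-06), the fifth lowest of all tested genes. The 3 shNC3 lists placed 60, 53 and 58 peaks at the gene and the shT2 lists 4, 4 and 3. One region of 6529 bp over the start site was complete in every shNC3 sample and covered over 1048, 1677 and 870 bp in shT2. Beyond it, 23 regions at COL5A1 were present in 3 of 3 shNC3 samples and 0 of 3 shT2 samples, the last of them just beyond the 3′ edge of the gene. The highest fold enrichment given by the authors' peak caller at COL5A1 was 17.0, 13.95 and 17.6 in shNC3 and 5.46, 5.45 and 4.40 in shT2.

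COL1A1 (chromosome 17, 50184101 to 50201631) encodes the major chain of type I collagen, the collagen of bone, skin and tendon. It was covered over 334, 0 and 332 bp in shT2 and over 13386, 13311 and 13742 bp in shNC3. The shNC3 samples were nearly equal, and shT2 replicate 2 had no peak. The difference was -4.40 (SE 0.21, limma adjusted p = 1.6e-05). A single region of 11448 bp inside the gene accounted for most of it, covered over 11448, 11444 and 11448 bp in shNC3. The short peaks of shT2 replicates 1 and 3 lay within that region. COL1A2, which encodes the partner chain of type I collagen, had no peak in any sample, and neither did COL3A1 or COL5A2.

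COL27A1 encodes a fibrillar collagen of cartilage. It had no peak in shT2 and 8053, 1934 and 4747 bp under peaks in shNC3 (limma adjusted p = 0.000583). The shNC3 samples differed among themselves but all lay above shT2. The 3 shNC3 lists placed 14, 5 and 12 peaks there, at a highest fold of 4.95, 6.41 and 5.47. These were low peaks at scattered places, and no region at the gene was present in all 3 shNC3 samples.

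COL11A2, a chain of the cartilage collagen XI, differed much less. It was covered over 3716, 2080 and 2659 bp in shT2 and over 4089, 3862 and 3720 bp in shNC3. The shT2 samples were lower without much distance. The difference was -0.57 (SE 0.20, limma adjusted p = 0.0446), and 3.71% of the covered length in shT2 and 4.04% in shNC3 lay outside the window of RXRB, the neighbouring retinoid receptor gene. On the bases outside other genes it was -0.16 (adjusted p = 0.512). The call was lost under 11 of 18 alternatives. Among these were 5 of the 6 fits that leave out a sample: adjusted p = 0.1004 without shT2 replicate 2, 0.0973 without shT2 replicate 3, and 0.0950, 0.121 and 0.0771 without shNC3 replicates 1, 2 and 3.

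**Figure D2:**
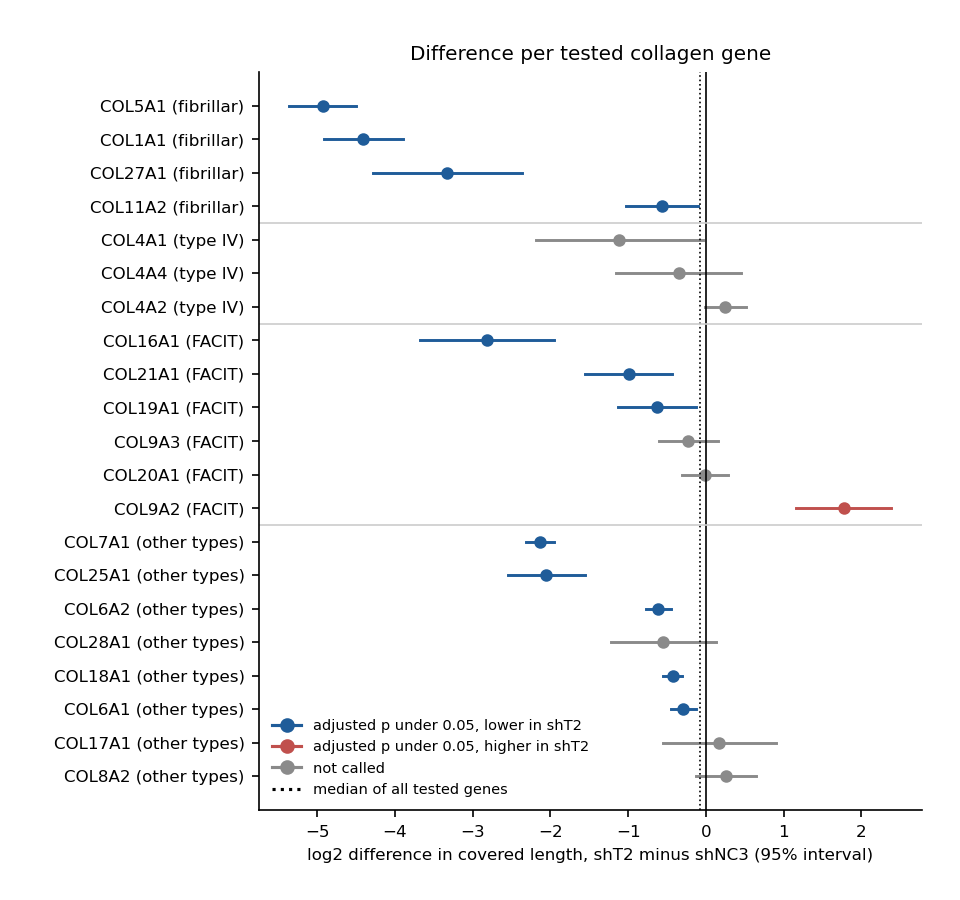
Log2 difference in scaled covered length for each of the 21 tested collagen genes, shT2 minus shNC3, with the 95% interval from limma, by class. Blue points were lower in shT2, the red point (COL9A2) was higher and grey points were not called. The dotted line is the median of all tested genes at -0.08, and the 4 fibrillar genes all lie to its left. For COL27A1, COL21A1, COL25A1 and COL9A2, with no peak in 1 hairpin, the plotted size depends on the 500 bp added before taking logs.

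None of the 3 tested type IV genes was called, and 3 of the 6 had no peak. Summed over the class, the lengths were 14.8, 21.6 and 17.8 kb in shT2 and 17.9, 14.3 and 14.8 kb in shNC3. These sums overlap, and they are not scaled for the total length covered in each sample. The stretch shared by COL4A1 and COL4A2 counts in both genes. It was covered over 0, 848 and 961 bp in shT2 and 3327, 2924 and 1520 bp in shNC3. Within the COL4A1-COL4A2 pair, however, the peaks lay in different places.

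COL4A1 and COL4A2 on chromosome 13 encode the chains of the common basement membrane collagen and diverge from start sites 126 bp apart. COL4A1 was covered over 298, 1289 and 2026 bp in shT2 and 3648, 2924 and 1520 bp in shNC3. The hairpins overlapped, and the difference was -1.11 (95% interval -2.18 to -0.04, limma adjusted p = 0.0767). It passed the threshold without shT2 replicate 3 (-1.48, adjusted p = 0.0368) and without shNC3 replicate 3 (-1.43, adjusted p = 0.0489), and with 5-fold peaks (-2.29, adjusted p = 0.00805) or equally many of the strongest peaks per list (-1.66, adjusted p = 0.0282). Windows at the gene ends gave -1.69 (adjusted p = 0.0198), and bases outside COL4A2 and other genes gave 0.80 (adjusted p = 0.102). COL4A2 was covered over 13067, 19146 and 15464 bp in shT2 and 13096, 10245 and 12143 bp in shNC3, with a difference of 0.25 (95% interval -0.01 to 0.52, limma adjusted p = 0.101). It also overlapped, and was called higher without shT2 replicate 1 (0.37, adjusted p = 0.0190), over the gene span alone (0.36, adjusted p = 0.0359) and on bases outside COL4A1 and other genes (0.55, adjusted p = 0.0177). Windows of 2 kb on either side of the gene ends gave -1.69 (adjusted p = 0.0198).

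The shared promoter and the 3′ side of COL4A2 differed in opposite directions. The stretch of 3874 bp that the windows of both genes share was covered over 0, 848 and 961 bp in shT2 and over 3327, 2924 and 1520 bp in shNC3. The shNC3 samples were all higher. The interval between the start sites, printed above, was covered in full in 3 of 3 shNC3 samples and not at all in shT2. On the 5′ side of its midpoint, COL4A2 was covered over 1066, 3831 and 2846 bp in shT2 and 5811, 6196 and 4053 bp in shNC3. On the 3′ side the lengths were 12001, 15315 and 12618 bp against 7285, 4049 and 8090 bp, so the shT2 samples were all higher there. Of the 3 collagen regions present in all shT2 samples and no shNC3 sample, 2 lay in COL4A2, 142 and 164 kb from its start. COL4A1 showed the same order: 0, 848 and 961 bp against 3648, 2924 and 1520 bp on the 5′ side, and 298, 441 and 1065 bp against 0 bp in every shNC3 sample on the 3′ side. Those COL4A1 peaks on the 3′ side were low, at a highest fold of 2.61, 3.24 and 4.02, and came from the deeper libraries. No region there was present in all shT2 samples, so a difference in the COL4A1 body is not established.

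**Figure D3:**
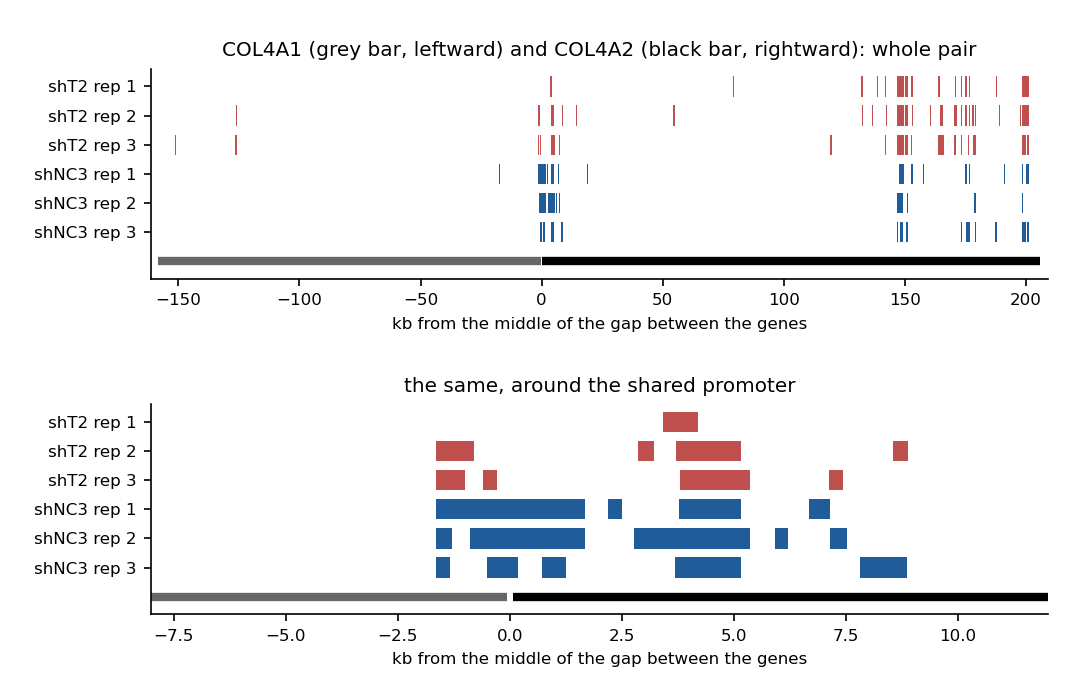
Called peaks at the COL4A1-COL4A2 pair in the 6 samples (red shT2, blue shNC3), against distance in kb from the middle of the 126 bp gap. The upper panel spans both genes and the lower one the region around the start sites. The gap is bridged by a peak in every shNC3 sample and in no shT2 sample, while shT2 has more peaks beyond 140 kb into COL4A2.

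The other type IV pairs carried no peak at their shared promoters. COL4A4 and COL4A3, whose chains join COL4A5 in the kidney's filtration barrier, lie 135 bp apart on chromosome 2, and COL4A6 and COL4A5 lie 379 bp apart on chromosome X. All 6 samples had 0 bp in the windows those pairs share, and COL4A3, COL4A5 and COL4A6 had none anywhere. COL4A4 alone was covered within its body, over 1456, 1159 and 299 bp in shT2 and 1127 bp in each shNC3 sample. The hairpins overlapped, with a difference of -0.35 (95% interval -1.16 to 0.45, limma adjusted p = 0.412). It was called lower with 5-fold peaks (-1.20, adjusted p = 0.0221) and with equally many of the strongest peaks per list (-0.90, adjusted p = 0.00961).

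Of 10 FACIT genes 4 had no peak, and of the 6 tested 3 were lower in shT2, 1 was higher and 2 were not called. The class summed to 7.41, 8.61 and 7.23 kb in shT2 and 13.8, 10.6 and 11.6 kb in shNC3.

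COL16A1, a minor FACIT of skin and cartilage, was covered over 468, 760 and 0 bp in shT2 and 7284, 3387 and 5093 bp in shNC3. All shNC3 samples were higher, with a difference of -2.81 (SE 0.37, limma adjusted p = 0.000769). Its peaks were weak, with a highest fold of 5.88, 4.90 and 5.66 in shNC3. With peaks of at least 5-fold enrichment the difference was -1.35 and the call was lost (adjusted p = 0.286). COL21A1 had no peak in shT2 and 605, 493 and 329 bp in shNC3 (limma adjusted p = 0.0109). COL19A1 carried 1 peak per sample at 1 place, 236 kb from its start, over 363, 282 and 312 bp in shT2 and 702 bp in each shNC3 sample. The difference was -0.63 (SE 0.21, limma adjusted p = 0.0412). It missed the threshold without any one of the samples: adjusted p = 0.0824, 0.103 and 0.0960 without shT2 replicates 1, 2 and 3, and 0.0698, 0.0777 and 0.0857 without shNC3 replicates 1, 2 and 3.

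COL9A2 was the only collagen gene called higher in shT2. It encodes a chain of collagen IX, which sits on the surface of cartilage fibrils, and its partners are COL9A1 and COL9A3. It was covered over 1034, 1958 and 989 bp in shT2 and had no peak in shNC3 (limma adjusted p = 0.00128). A region of 989 bp at its start site was covered over 419, 548 and 989 bp in the shT2 samples, and shT2 replicate 3 alone covered the promoter printed above. The highest fold was 4.16, 5.57 and 3.73. These are low peaks in the deeper libraries: over the gene span alone the call was lost (adjusted p = 0.0704), and with lists thinned to equal depth, or with 5-fold peaks, COL9A2 did not pass the filter and was not tested. COL9A1 had no peak. COL9A3 was covered over 1998, 1998 and 2284 bp against 1998, 2382 and 2454 bp, a difference of -0.23 (95% interval -0.61 to 0.16, limma adjusted p = 0.275). In every sample 1998 bp of this lay outside the gene, as the edge of a 20004 bp region that fills the flank. That region was covered over 12806, 14161 and 13174 bp in shT2 and 19423, 18572 and 19470 bp in shNC3. Of the COL9A3 cover, 10.0% in shT2 and 21.5% in shNC3 lay outside the windows of other genes. COL20A1 differed by -0.01 (95% interval -0.31 to 0.28, limma adjusted p = 0.931).

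Among the 17 genes of other types, 7 had no peak, 2 were below the filter, 5 were lower in shT2 and 3 were not called. The class summed to 71.4, 74.5 and 66.5 kb in shT2 and 104, 99.5 and 103 kb in shNC3.

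COL7A1 (chromosome 3, 48564073 to 48595329) encodes the anchoring fibrils that hold the epidermis to the dermis, and is mutated in dystrophic epidermolysis bullosa. It was covered over 5564, 6163 and 4707 bp in shT2 and 23444, 22202 and 23366 bp in shNC3. The samples of each hairpin were close together and the hairpins far apart, with a difference of -2.13 (SE 0.08, limma adjusted p = 6.71e-06). Around the start site a peak was present in all 6 samples, in a region that reaches 11.7 kb upstream of the gene. The highest fold in that region was 18.6, 23.02 and 24.6 in shT2 and 30.1, 36.4 and 34.9 in shNC3. It may lie outside the gene. In shT2 the cover ended about 4 kb into the gene. On the 3′ side of the midpoint the lengths were 0 bp in every shT2 sample and 8007, 8300 and 7897 bp in shNC3. The neighbouring UCN2 and PFKFB4, whose windows overlap that of COL7A1, were also lower, by -3.26 and -1.75. On the bases outside other genes COL7A1 differed by -1.97 (adjusted p = 3.87e-05).

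COL25A1, a transmembrane collagen found in amyloid plaques of Alzheimer's disease, had no peak in shT2 and the same 1485 bp in each shNC3 sample (limma adjusted p = 0.000261). This was 1 region, 37.0 kb from the start, at a fold of 7.53, 6.85 and 6.93. COL27A1, COL21A1 and COL25A1 were the collagen genes with a peak in 3 of 3 shNC3 and 0 of 3 shT2 samples, as were 3.22% of tested genes, and COL9A2 was the reverse case, as were 2.82%. COL17A1, the hemidesmosome collagen, was not called (2835, 2582 and 1103 bp against 1739, 1880 and 1172 bp, 0.17, 95% interval -0.56 to 0.90, limma adjusted p = 0.657).

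The type VI genes COL6A1 and COL6A2 encode chains that are mutated in Bethlem myopathy and lie 93.1 kb apart on chromosome 21. COL6A2 was covered over 16298, 15625 and 14372 bp in shT2 and 21584, 21669 and 20855 bp in shNC3. The hairpins were apart, with a difference of -0.61 (SE 0.07, limma adjusted p = 0.000383). The shT2 samples were all lower on both sides of the midpoint, at 0, 716 and 464 bp against 4642, 5080 and 4266 bp on the 5′ side and at 16298, 14909 and 13908 bp against 16942, 16589 and 16589 bp on the 3′ side. A block of 16589 bp on the 3′ side was covered whole in every shNC3 sample and in part in every shT2 sample. The promoter window printed above was covered in 3 of 3 shNC3 samples and in no shT2 sample. COL6A1 differed by less, at 13902, 13214 and 13162 bp against 15483, 14971 and 14054 bp (-0.29, limma adjusted p = 0.0109), and missed the threshold without scaling (-0.14, adjusted p = 0.0624), with 5-fold peaks (-0.44, adjusted p = 0.143) and in windows at the gene ends (-0.33, adjusted p = 0.141). COL6A3, which encodes the third chain, had no peak.

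COL18A1, the multiplexin whose tail is released as endostatin, lies 468 kb from COL6A1 on the same chromosome. It was covered over 27773, 31934 and 28365 bp in shT2 and 35593, 33031 and 38096 bp in shNC3, a difference of -0.43 (SE 0.05, limma adjusted p = 0.000511). All shNC3 samples were higher. The difference lay on the 5′ side of the midpoint, at 3561, 7129 and 3446 bp against 15968, 14583 and 17399 bp, while the 3′ side was higher in shT2, at 24212, 24805 and 24919 bp against 19625, 18448 and 20697 bp. Much of the 3′ cover is shared with SLC19A1, the folate carrier gene, and bases outside other genes gave -0.88 (adjusted p = 0.000465). COL8A2, of the short-chain network of the cornea, was not called (0.26, 95% interval -0.13 to 0.64, limma adjusted p = 0.220), nor was COL28A1 (-0.55, 95% interval -1.22 to 0.13, limma adjusted p = 0.146). Without shT2 replicate 3 COL8A2 was called higher (0.42, adjusted p = 0.0406), and with lists thinned to equal depth COL28A1 was called lower (-1.28, adjusted p = 0.0290).

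**Figure D4:**
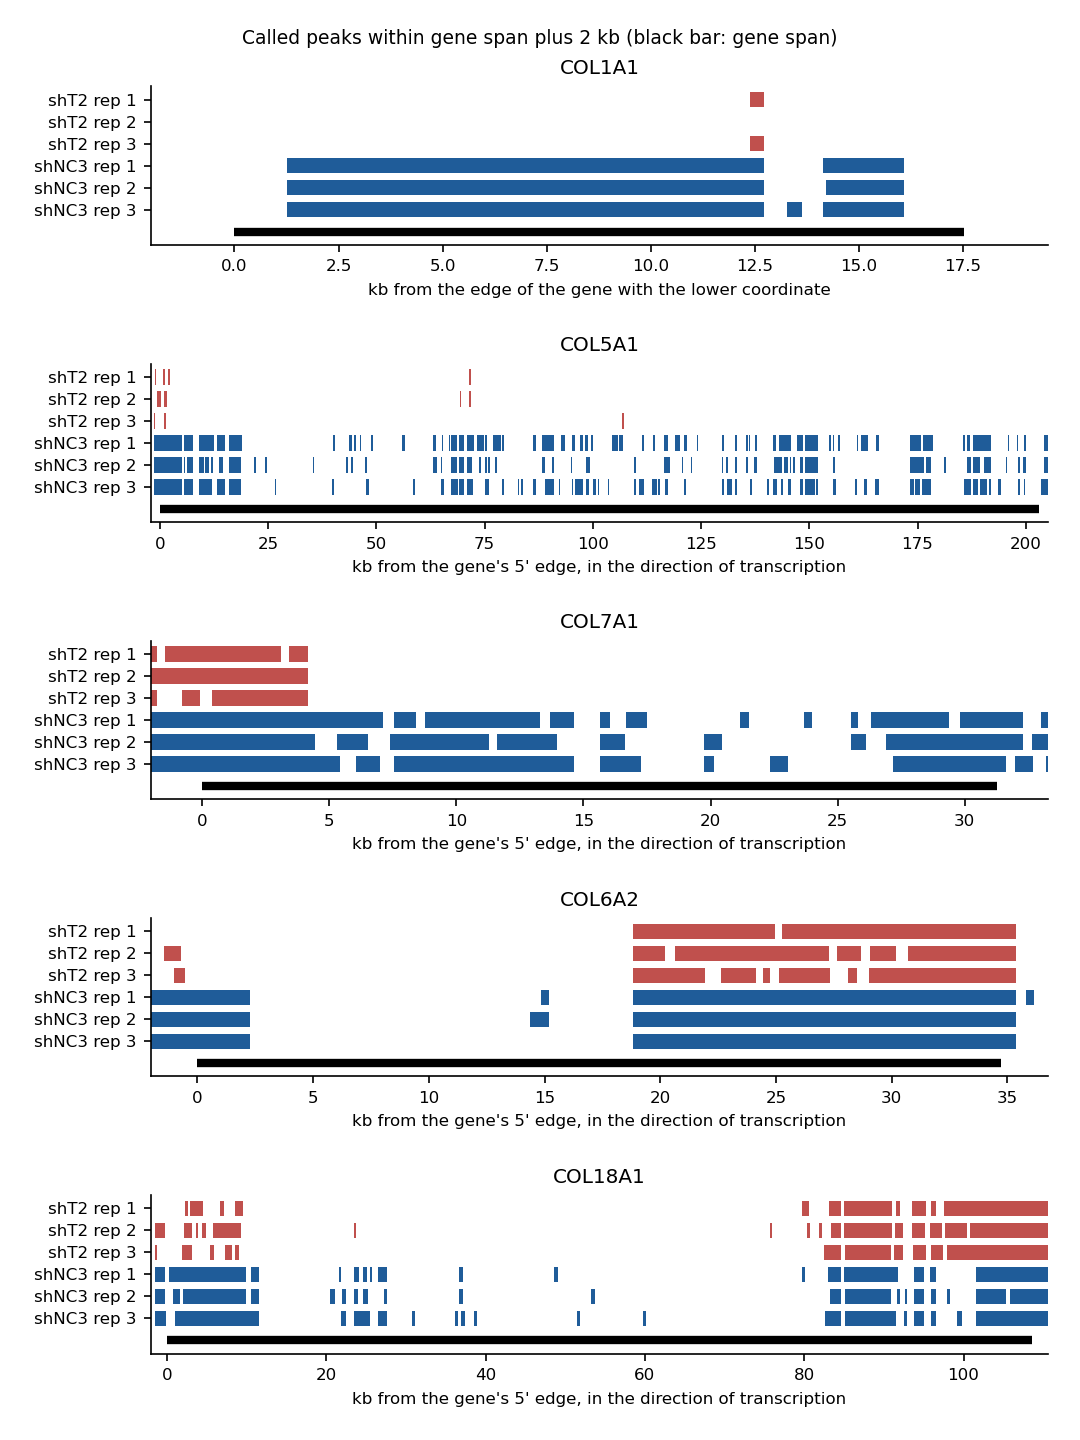
Called peaks within the span plus 2 kb of COL1A1, COL5A1, COL7A1, COL6A2 and COL18A1 in each sample (red shT2, blue shNC3, black bar the gene span), against distance in kb from the 5′ edge, or for COL1A1 from the edge with the lower coordinate. At COL7A1 the shT2 peaks stop about 4 kb into the gene, and at COL6A2 and COL18A1 the shT2 peaks persist in the 3′ part.

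The position of the difference was compared over all genes whose direction is known and that had a peak in at least 3 samples on each side of the midpoint. At COL4A1, COL4A2 and COL18A1, 3 of 8 such collagen genes, the shT2 samples all lay below the shNC3 samples on the 5′ side and all above on the 3′ side. The same held for 4.94% of 6310 genes. The opposite order was found at 86 genes and no collagen gene. With lists thinned to equal depth it held at COL4A2 and COL18A1, 2 of 7 collagen genes, and at 3.76% of 6086 genes. Thinning kept or dropped whole peaks at their called width, so it cannot show whether the greater shT2 length on the 3′ side holds at equal depth. In the main comparison COL4A1 reached the filter of 3 samples on the 3′ side through shT2 alone, which fixed its order there. Its 5′ cover is largely that of the promoter it shares with COL4A2. No test was made of this count, and much of the COL18A1 cover on the 3′ side belongs to SLC19A1.

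Merged over the 6 samples, the peaks at collagen genes formed 226 regions. Of these 27 were present in all samples, 32 (14.2%) in 3 of 3 shNC3 and 0 of 3 shT2 samples, and 3 (1.33%) in the reverse. Over all 75758 regions the shares were 2.86% and 5.87%. COL5A1 contributed 23 of the 32, COL7A1 and COL18A1 3 each, and COL1A1, COL21A1 and COL25A1 1 each, so the share describes mainly 1 gene. The count of 3 was 7 without shT2 replicate 3 and 5 without shNC3 replicate 1.

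RefSeq promoter windows (250 bases before to 50 after a start) were at hand for 32 of the 44 genes, 44 windows in all. A peak touched 6.82%, 9.09% and 6.82% of them in shT2 and 18.2%, 20.5% and 18.2% in shNC3. Over all 35116 annotated promoters the shares were 21.5%, 22.9% and 21.0% against 24.9%, 22.2% and 23.8%. Over the promoters of protein-coding genes they were 27.6%, 29.4% and 26.9% against 32.1%, 28.4% and 30.5%. The collagen share lay below both in every sample, and the collagen shares of the hairpins did not overlap. The collagen windows are few and not independent: those of COL4A1 and COL4A2 overlap, and those of COL5A1 nearly coincide. The 10 windows with a peak belonged to 8 genes: COL4A1, COL4A2, COL5A1, COL6A2, COL7A1, COL9A2, COL11A2 and COL18A1. COL4A1, COL4A2 and COL6A2 were covered at the promoter in 3 of 3 shNC3 samples and 0 of 3 shT2 samples. COL5A1 was covered there in 3 of 3 shNC3 samples and in shT2 replicate 2, and COL7A1 in all samples. The median GC content was 74.2% in the collagen windows with a peak and 60% in those without, and over all promoters 66.3% and 52.7%.

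Genes whose products modify, export, process or bind collagen were read from a list of 53. Of these 12 had no peak, 5 were below the filter and 36 were tested, with 20 lower in shT2, 6 higher and 10 not called, beside the background of 27.2% and 24.2%. Their median difference was -0.35. Of the 36, 3 passed the filter through 1 hairpin alone (SEC24D, DCN and ADAMTS14), so their direction was fixed in advance. The 20 lower genes include SEC24D and DCN, and the 6 higher genes include ADAMTS14.

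Among the enzymes that hydroxylate and glycosylate the chains, 8 of 12 tested were lower and 1 was higher. P4HA2, an alpha subunit of prolyl 4-hydroxylase, was covered over 0, 363 and 0 bp in shT2 and 3793, 2746 and 2427 bp in shNC3 (-2.61, limma adjusted p = 0.000353). P4HA3, another alpha subunit, went the other way, at 3504, 3397 and 2750 bp against 547, 0 and 0 bp (2.47, adjusted p = 0.000880), but all of its cover lay within the windows of other genes. PLOD3, a lysyl hydroxylase, was lower by -0.53 (adjusted p = 0.000460). The shT2 and shNC3 samples did not overlap at any of these.

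For folding and export, 3 of 6 tested genes were lower and 1 was higher. SEC24D, a coat protein of the vesicles that carry procollagen, had no peak in shT2 and 2776, 1308 and 789 bp in shNC3 (adjusted p = 0.00273). It passed the filter through shNC3 alone and had to be lower. SERPINH1, the collagen chaperone HSP47, was lower by -0.38 (adjusted p = 0.00424) and FKBP10, a prolyl isomerase, by -0.36 (adjusted p = 0.00306).

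Of the 4 tested genes for propeptide removal, 1 was lower and 2 were higher. BMP1, the procollagen C-proteinase, was covered over 26139, 27789 and 24004 bp against 35584, 33298 and 34690 bp (-0.56, adjusted p = 9.7e-05). Its relative TLL2 was higher, at 3126, 3723 and 2821 bp against 0, 392 and 520 bp (2.17, adjusted p = 0.00117). ADAMTS14, an N-proteinase, had 282, 1031 and 2535 bp in shT2 and no peak in shNC3 (adjusted p = 0.0260), so it had to be higher. It missed the threshold in 5 of 6 fits that leave out a sample, at adjusted p = 0.0722 and 0.0540 without shT2 replicates 2 and 3, and 0.0641, 0.0722 and 0.0616 without shNC3 replicates 1, 2 and 3.

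Among cross-linking and fibril-associated genes 4 of 7 tested were lower and 0 were higher. The lower genes include DCN, which had no peak in shT2 and had to be lower. LOXL2, a lysyl oxidase that cross-links fibrils and type IV networks, was covered over 419, 419 and 271 bp in shT2 and 9745, 9010 and 9130 bp in shNC3 (-3.61, adjusted p = 6.71e-06). SPARC, a collagen-binding matricellular protein, was covered over 0, 1615 and 1260 bp against 15033, 11056 and 9647 bp (-3.43, adjusted p = 0.00118). Both were far lower in every shT2 sample. LOXL3 was lower by -0.35 (adjusted p = 0.00319). LOX and LOXL1 had no peak.

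Of the 7 tested receptors 4 were lower and 2 were higher. DDR1, a receptor tyrosine kinase for collagen, was covered over 4242, 3594 and 2017 bp in shT2 and 11077, 9401 and 8837 bp in shNC3 (-1.63, adjusted p = 0.000812). Its relative DDR2 was higher, at 3534, 2873 and 1842 bp against 1025, 898 and 1254 bp (0.91, adjusted p = 0.0144), and missed the threshold with lists thinned to equal depth (0.39, adjusted p = 0.547) and without shT2 replicate 1 (0.73, adjusted p = 0.0521). MRC2, the endocytic collagen receptor, was lower by -0.67 (adjusted p = 0.000290).

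**Figure D5:**
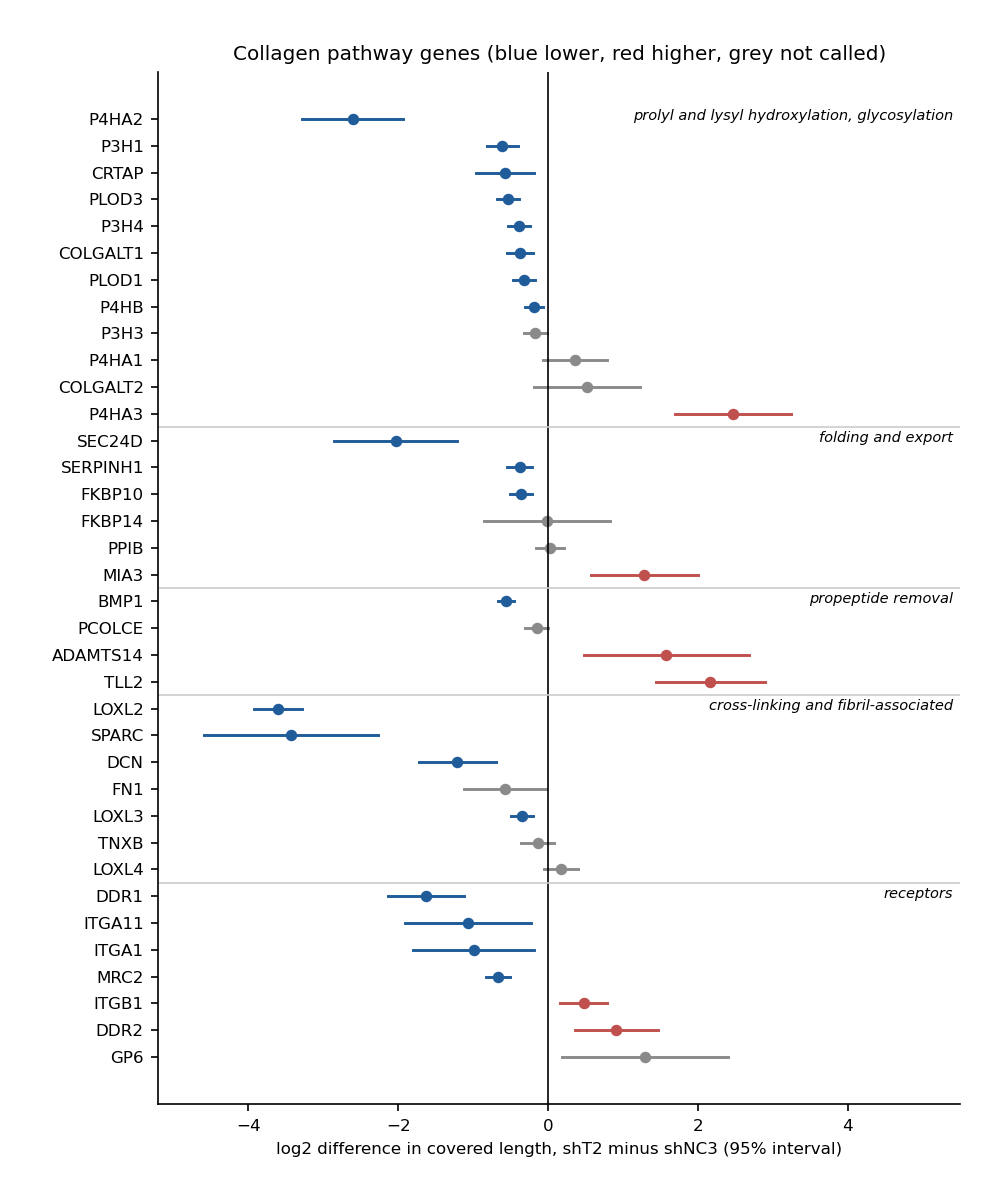
Log2 difference in scaled covered length, shT2 minus shNC3, with the 95% interval from limma, for the 36 tested genes of the collagen pathway list, by role. Blue genes were lower, red genes higher and grey genes not called; LOXL2, SPARC and P4HA2 lie farthest left and P4HA3 and TLL2 farthest right. The sizes of SEC24D, DCN and ADAMTS14, with no peak in 1 hairpin, depend on the 500 bp added.

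Among the markers of neuroblastoma cell states that were called, the mesenchymal ones were lower in shT2 and the noradrenergic ones higher. Of 16 mesenchymal markers, 11 were tested, 8 were lower in shT2 and 0 higher, and their summed length was 26.9 to 28.9 kb in shT2 and 58.3 to 63.4 kb in shNC3. PRRX1, CD44, YAP1 and ITGA5 had no peak in shT2, so these 4 of the 8 passed the filter through shNC3 alone and had to be lower. The 3 tested but not called were FN1, NOTCH2 and VIM, and VIM was covered over 6935 bp in every sample. SNAI2, MEOX1, MEOX2 and IFI16 had no peak in any sample. Of 14 noradrenergic markers, 12 were tested, 7 were higher and 0 lower, with sums of 141 to 145 kb against 102 to 107 kb. The 5 not called were PHOX2A (-0.17), HAND2 (-0.18), GATA2 (-0.08), DBH (-0.08) and GATA3 (0.07). At PHOX2A, HAND2 and GATA2 the scaled lengths of the shT2 samples all lay below those of shNC3. Of all tested genes 27.2% were lower and 24.2% higher. HAND2 and GATA3, transcription factor genes of the noradrenergic lineage, had peaks in all samples, and TH had none. Of 6 fibroblast markers 1 was higher (PDGFRA) and 1 lower (DCN), with sums of 60.4 to 64.5 kb against 39.8 to 42.4 kb and LUM and FAP at 0. Of 5 Schwann cell markers 1 was tested (ERBB3) and not called, with sums of 0.065 to 0.343 kb against 0.283 to 1.496 kb and S100B at 0. FN1 is in both the mesenchymal and the pathway list, and DCN and LUM in the fibroblast and the pathway list. A peak is no measure of expression, and the part of these markers in the collagen result was not tested.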

How the data were processed

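Each sample has 1 narrow peak list, called per sample. Per the submitters' processing notes, the tools were Bowtie2 2.4.4, SAMtools and MACS2 2.2.6, on hg38. For the control used by the peak caller, nothing is given in these sources. Nucleic acids were cut with restriction enzymes before the pulldown, per the labels' protocols, so a peak can follow a cut fragment. The deposited lists give an integer score, a fold enrichment (a linear ratio) at the summit, and −log10 p and q values, and hold peaks with a q-value up to 0.01.

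For each protein-coding gene of the RefSeq table (GRCh38.p14), the bp under merged peaks in its span plus 2 kb were counted and checked against bedtools 2.31.1 in 1 sample (0 genes differed). They were scaled so that each sample had the mean total length, and log2(scaled bp + 500) went into limma 3.58.1 (R 4.3.3; lmFit, then eBayes with its trend and robust options; no covariate) for genes covered in at least 3 of 6 samples. All adjusted p-values are Benjamini-Hochberg over every tested gene, and the script was tested on simulated data. Log2 differences understate changes of short cover. Depth was recovered from fold and p at each summit. For the lists thinned to equal depth, the summit counts were drawn down and peaks no longer past the threshold were dropped. The peaks that stayed kept their called width, so covered length itself was not thinned. Regions are merged peaks, and 1 shared bp counts as present. Strand came from the RefSeq promoter table and was not used where that table holds no entry. Exons and cut sites were not analysed here.

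Named were all collagen genes (by sample where the difference exceeded 1, where 1 hairpin had no peak, or in adjoining pairs) and up to 3 called pathway genes per role with the smallest p. COL11A2, COL19A1, COL9A3, COL17A1, COL6A1, COL6A2 and COL18A1 are also given by sample, which was decided after their values were seen. The genes and lists were chosen with earlier results of these data known. Alternatives were other scaling, pseudocounts, filters, peak thresholds, windows, equal depth, a replicate block and leaving out each sample. Values of some single marker genes are not reported here.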

Additional observations from a re-analysis of the deposited data

How the results depend on the processing

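Of the 13 called collagen genes, 8 (COL1A1, COL5A1, COL6A2, COL7A1, COL18A1, COL21A1, COL25A1 and COL27A1) kept direction and call under every alternative that could test them, and all 13 kept direction. For COL21A1, COL25A1, COL27A1 and COL9A2, with no peak in 1 hairpin, the direction was fixed in advance, so its stability says nothing. The collagen genes called numbered 9 to 14 over all alternatives. Those called higher numbered 0 with 5-fold peaks, 0 with lists thinned to equal depth, 2 on bases outside other genes and 1 to 2 when a sample was left out. COL4A2 turned to -1.69 in windows around the gene ends, which for that gene hold the promoter shared with COL4A1. With 5-fold peaks, 3801 of all genes were called, 1955 lower and 1846 higher, and 16 pathway genes, 13 lower and 3 higher. Without scaling 2044 of all genes were lower, the median of all genes moved from -0.08 to 0.06, that of the collagen genes from -0.57 to -0.45, and the share of called genes that were higher from 47.1% to 60.9%. In windows around the gene ends 1572 of all genes and 2 of 16 called pathway genes were higher. The collagen regions of shT2 alone numbered 1 with 5-fold peaks, 1 with thinned lists and 3 to 7 when a sample was left out, and those of shNC3 alone 19 with 5-fold peaks and 32 to 47. The causes were not tested. Replicate numbers did not pair the samples (correlations of deviations -0.02, -0.06 and -0.01). With a replicate block 1 collagen gene was higher and 11 were lower, COL19A1 missing the threshold (adjusted p = 0.110). Low peaks limit what can be said of COL9A2, COL16A1, COL19A1 and COL27A1, and unequal depth of genes covered in shT2 alone.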
